A study of Mus musculus with 3 samples.

Results

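Integrins are cell surface receptors made of 1 alpha and 1 beta subunit, which bind proteins of the extracellular matrix outside the cell and couple to the actin cytoskeleton inside it. In the glomerulus, the capillary tuft of the renal corpuscle, they hold podocytes and endothelial cells to the basement membrane between them and hold mesangial cells to their matrix. Nephronectin is a secreted matrix protein and a ligand of integrin α8β1, and mice that lack either this receptor or this ligand can fail to form kidneys. Described here are 9 integrin subunit genes, Itga1, Itga2, Itga3, Itga5, Itga6, Itga8, Itgav, Itgb1 and Itgb5, and the nephronectin gene Npnt. These 10 genes were chosen by name, with earlier results of these data known, among 19938 genes measured, and all 10 had a value. Each was read by the probe set, a group of array probes, whose platform annotation names that symbol and no other, and each of the 10 had 1 such probe set.

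The data are gene expression arrays of 3 samples of adult renal corpuscle, which form 1 group, so there is no comparison between conditions. About 2 kidneys were pooled for each sample, from wild-type CD-1 males, an outbred mouse stock, aged 7 to 9 weeks. Minced kidneys were digested for 15 minutes at 37 °C in 0.5% collagenase A, and corpuscles were collected by sieving with filters of 100, 70 and 40 µm. No cells were sorted, so every value is that of a mixture of cells, and RNA of 2 subunits in the mixture does not place both in the same cell. Nothing in the labels ties the pools to litters or to days of preparation, and part of the spread between them may be technical.

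Values are log2 signals, and a linear signal is 2 to the power of that value. Background was set on each array by the 95th percentile of receptor genes of smell (1212 olfactory and vomeronasal probe sets), and it lay at 6.90, 6.96 and 6.92 log2 on replicates 1, 2 and 3. A gene was called detected where its signal minus background was above 0 (one-sided limma test, adjusted p under 0.05 over all genes). This call was in effect a threshold close above background. Markers of the labelled tissue were present. All 10 podocyte markers, all 10 endothelial markers and all 7 mesangial markers analysed were detected, with medians of 4.37, 3.95 and 3.32 log2 above background. Those of highest signal were Cdkn1c and Podxl for podocytes, Emcn and Kdr for endothelium and Ptn and Agtr1a for mesangium. Markers of the proximal tubule, an adjoining segment that the filters may let pass, were detected for 8 of 10 genes, with a median of 0.85 and with Kap and Gatm of highest signal, and leukocyte markers for 6 of 8, with a median of 0.62. Markers of the distal nephron were detected for 6 of 9 genes, with a median of 0.91 and with Calb1 and Umod of highest signal. Over all genes the share detected was 58.9%, with a median of 0.37.

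All 10 integrin and nephronectin genes were detected, where the share of all genes detected was 58.9%. With a stricter background at the 99th percentile of the receptors, 10 of 10 were again detected, where the share of all genes was 41.7%. Their median level was 3.40 log2 above background, against 0.37 over all genes and 1.29 over detected genes. A linear signal over 500 on all 3 arrays was held by 9 of the 10, where 17.2% of all genes held one, and a signal over 1000 by 5, where 7.59% did. The 5 were Itgb1, Itgb5, Itgav, Itga8 and Npnt, and Itga5 was the gene that stayed under 500. Signals of different probe sets have different affinities, so the genes are not ranked against each other here. The 10 were chosen with earlier results of these data known, so the shares beside them are description and not a test.

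**Figure D1:**
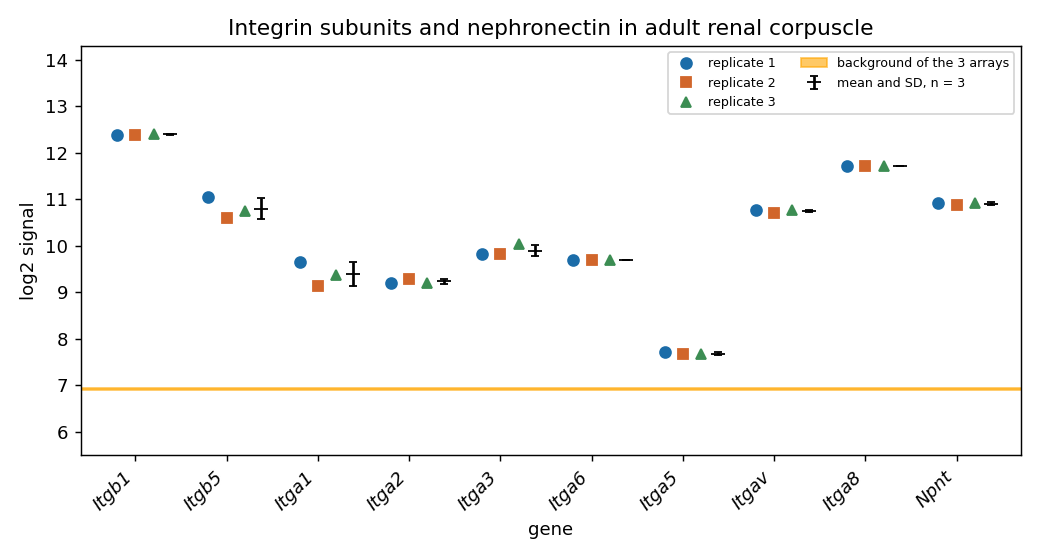
log2 signal (vertical axis) of the 9 integrin subunit genes and Npnt (horizontal axis) on each of the 3 arrays of adult renal corpuscle; black marks give the mean with its SD (n = 3), and an orange band runs over the background levels, 6.90 to 6.96. Every point lies above the band, Itga5 closest to it, and the 3 arrays lie apart most visibly for Itga1 and Itgb5.

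The beta subunits decide which group of receptors an integrin belongs to. Itgb1 encodes the beta1 subunit, which pairs with more alpha subunits than any other. Its log2 signal was 12.39, 12.39 and 12.41 on replicates 1, 2 and 3, or 12.40 ± 0.01 (SD, n = 3), which is 5.48 above background and a linear signal of 5401. The arrays therefore differed by 0.02 log2 at most. Itgb5 encodes the beta5 subunit, which pairs with alphav in a receptor for vitronectin. It had 11.05, 10.60 and 10.74 log2 on replicates 1, 2 and 3, a mean of 10.80 ± 0.23 (n = 3) that lies 3.88 above background.

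Among alpha subunits, alpha1 and alpha2 form collagen receptors with beta1. Itga1 had 9.65, 9.15 and 9.38 log2 on replicates 1, 2 and 3, with a mean of 9.39 ± 0.25 (n = 3), or 2.47 above background. Itga2 had 9.21, 9.29 and 9.21, with a mean of 9.24 ± 0.05, or 2.31 above background. All values of both genes exceeded background by more than their own range between arrays. The 2 genes are neighbours on chromosome 13. The reference annotation places the gene Pelo inside Itga1. The probe set of Pelo had 8.26, 7.97 and 7.94 log2 on replicates 1, 2 and 3, so it too was highest on replicate 1, but it was lowest on replicate 3 where Itga1 was lowest on replicate 2.

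The alpha3 and alpha6 subunits form laminin receptors. Integrin α3β1 is the main laminin receptor of podocytes, and inherited loss of ITGA3 in people causes a nephrotic syndrome with lung and skin disease. Itga3 had 9.82, 9.82 and 10.03 log2 on replicates 1, 2 and 3, a mean of 9.89 ± 0.12 (n = 3) and 2.97 above background, with replicate 3 above the others. Itga6 held 9.69 on every array, which is 2.76 above background. Identical values on different arrays are common in this table, so a gene with an SD of 0 still has an error.

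The alpha5, alphav and alpha8 subunits belong to receptors that recognise the short RGD motif in matrix proteins. Itga5, part of the main fibronectin receptor, had 7.71, 7.67 and 7.67 log2 on replicates 1, 2 and 3. It was detected with a mean of 7.69 ± 0.02 (n = 3), 0.76 above background, which is 1.70-fold and a linear signal of 206. Itgav had 10.77, 10.72 and 10.77, a mean of 10.75 ± 0.03 and 3.83 above background. Itga8, in the adult glomerulus a subunit of mesangial cells, held 11.73 on every array, which is 4.81 above background, 28.0-fold in signal. Of these 3 genes, Itga5 alone was under a linear signal of 500.

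Npnt, the ligand gene, had 10.93, 10.88 and 10.93 log2 on replicates 1, 2 and 3. The mean was 10.91 ± 0.03 (n = 3), which is 3.99 above background and a linear signal of 1926. Both subunits of its receptor α8β1 and the ligand itself were thus measured in the same samples at more than 3 log2 above background on each array. Proteins that fix nephronectin in basement membranes during development are encoded by Fras1, Frem1 and Frem2, and Grip1 encodes an adaptor of that group. Frem2 at 7.32 log2 and Fras1 at 7.05 were detected, 0.40 and 0.12 above background. Frem1 at 6.75 ± 0.01 and Grip1 at 6.84 ± 0.09 were not detected, and with the 99th percentile as background 0 of the 4 were.

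The promoters of the 3 genes of the α8β1 receptor and its ligand are printed because the genes form 1 receptor and ligand set and because the CpG counts of detected and undetected genes, given here with no test, lay apart. The sequences are from RefSeq on GRCm38.p6, 5′ to 3′, each the 250 bases before the annotated start. Capitals mark the GC box, GGGCGG on either strand.
Itga8, chr2:12301945-12302194, minus strand: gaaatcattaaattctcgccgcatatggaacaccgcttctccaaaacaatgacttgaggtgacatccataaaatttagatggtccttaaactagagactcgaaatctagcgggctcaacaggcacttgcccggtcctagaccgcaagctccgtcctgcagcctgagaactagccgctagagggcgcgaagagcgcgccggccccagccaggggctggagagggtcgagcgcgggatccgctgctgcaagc
Itgb1, chr8:128685404-128685653, plus strand: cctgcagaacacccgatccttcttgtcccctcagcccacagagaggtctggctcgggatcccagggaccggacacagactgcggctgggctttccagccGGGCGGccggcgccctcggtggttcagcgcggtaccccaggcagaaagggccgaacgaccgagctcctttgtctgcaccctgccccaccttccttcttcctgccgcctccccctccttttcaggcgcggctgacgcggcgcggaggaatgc
Npnt, chr3:132950292-132950541, minus strand: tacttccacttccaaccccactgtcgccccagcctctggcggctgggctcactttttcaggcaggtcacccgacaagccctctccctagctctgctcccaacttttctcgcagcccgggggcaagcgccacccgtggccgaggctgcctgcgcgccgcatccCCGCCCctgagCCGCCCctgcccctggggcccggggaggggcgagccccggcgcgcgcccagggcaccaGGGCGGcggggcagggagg
The promoter of Npnt held 3 GC boxes, that of Itgb1 held 1 and that of Itga8 held 0. CpG dinucleotides numbered 18 in Itga8, 21 in Itgb1 and 21 in Npnt. Over the 9 of 10 genes matched by symbol (all but Itga6) the count ran from 10 in Itga1 to 22 in Itga3, with a median of 18. The median was 16 over 9420 genes detected on the arrays and 4 over 6194 genes not detected. A GC box was found in 5 of the 9, and in 33.0% of all 27025 genes with a promoter, or 58.6% of detected and 26.9% of undetected genes. The CCAAT motif, on either strand, was in 0 of the 9 and in 34.5% of all genes, and TATAAA was in 0 of the 9 and in 13.0%. Such matches are descriptions of the letters in this window and not binding sites.

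The rest of the integrin family was then examined to set these 9 subunits in context. Of 26 subunit genes measured, 18 were detected, 12 of 18 alpha and 6 of 8 beta genes, where 58.9% of all genes were. Among them were 9 of the 17 other subunits, a share near that of all genes. Of those 9, 6 lay at most 0.50 log2 above background. Itgb8, whose subunit binds latent TGF-beta together with alphav, lay higher, with 10.43, 10.58 and 10.32 log2 on replicates 1, 2 and 3, a mean of 10.44 ± 0.13 (n = 3) and 3.52 above background. Itga4, whose subunit binds VCAM1 and fibronectin, had 10.29, 10.16 and 10.28, with a mean of 10.24 ± 0.07 and 3.32 above background. Itga9, a subunit that binds tenascin-C, had 9.02, 8.83 and 8.83, with a mean of 8.89 ± 0.11 and 1.97 above background.

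Itgb4, the beta subunit of hemidesmosomes, was also detected and held 7.34 on every array, 0.42 above background. Itga7, a laminin receptor subunit of muscle, held 7.31 and Itga10, a collagen receptor subunit, held 7.05, which are 0.39 and 0.13 above background. Itgb3, the beta subunit of platelets and an alphav partner, was not detected at 6.72, nor was Itgb6, an alphav partner of epithelia, at 5.99 ± 0.04, nor Itga11 at 6.69.

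Of 8 subunits known from leukocytes and platelets, 3 were detected, Itgb2 at 7.42 log2, Itga2b at 7.27 and Itgb7 at 7.05, each with the same value on all arrays and at most 0.50 above background. Itgal at 6.92, Itgam at 6.03, Itgax at 6.49 ± 0.03, Itgad at 6.94 ± 0.07 and Itgae at 6.11 were not detected. A further 3 probe sets name Itgam together with a second gene and were not read. The share of all genes detected was 58.9% with the 95th percentile as background and 41.7% with the 99th. With the 99th percentile as background 0 of the 8 were detected, and the same setting left 1 of 4 beta subunits and 2 of 5 alpha partners of beta1. Of 8 leukocyte markers 6 were detected, with a median of 0.62 above background, and they ranged widely. Tyrobp, an adaptor of myeloid cells, was at 9.08 ± 0.41 and Lyz2, lysozyme, at 8.83 ± 0.46, whereas Csf1r and Cd3e were 0.16 and 0.43 above background and Adgre1, the macrophage receptor, at 5.84 and Cd79a, of B cells, at 6.18 were not detected. Among 3 platelet markers analysed, Ppbp was at 8.62 ± 0.05 and Pf4 at 7.42 ± 0.21, both detected, and Gp9 at 6.90 was not. How far leukocyte or platelet RNA contributed to Itga4, Itgb2 or Itga2b was not tested.

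**Figure D2:**
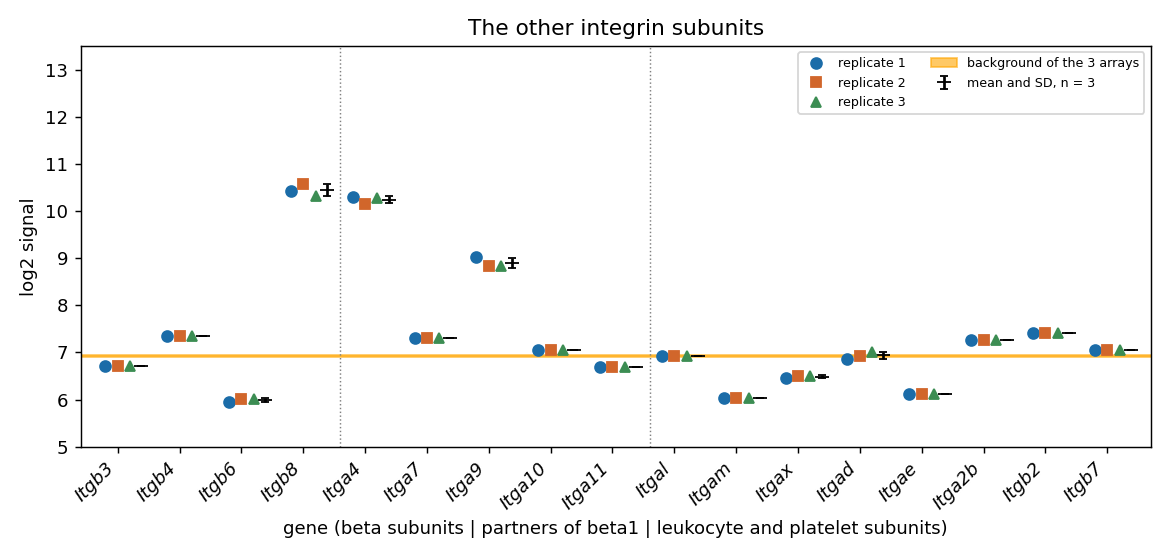
log2 signal (vertical axis) of the 17 other integrin subunit genes (horizontal axis) on each array; black marks give the mean with its SD (n = 3), and an orange band runs over the background levels, 6.90 to 6.96. Itgb8, Itga4 and Itga9 stand clear of the band, and the leukocyte and platelet subunits lie below it or at most 0.50 above.

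Subunits act in pairs, and mammals are known to form 24. Both subunit genes were detected for 15 pairs and 1 of the 2 for the other 9, where 58.9% of all single genes were detected. Of the 12 pairs with beta1, 11 had both genes detected, the exception being α11β1. These 12 share the gene Itgb1, so 11 is the count of their detected alpha genes and not of separate results. For 9 pairs both genes exceeded a linear signal of 500 on each array, where 17.2% of all single genes did. These were the beta1 pairs of alpha1, alpha2, alpha3, alpha4, alpha6, alpha8 and alphav, and the alphav pairs of beta5 and beta8. The fibronectin receptor α5β1 was outside this count through Itga5, and α6β4, αvβ3 and αvβ6 through their beta subunits. With the 99th percentile as background 11 pairs had both genes detected, those of alpha7 and alpha10 with beta1, α6β4 and α4β7 being lost. The share of all single genes was then 41.7%.

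Inside the cell, integrin tails bind talin and kindlin, which activate them, and the complex of ILK, PINCH and parvin, which ties them to actin. A list of 25 genes analysed held these and other partners, such as Src and Vcl, and also the tetraspanin gene Cd151. Of the 25, 21 were detected, with a median of 2.41 log2 above background, and 20 with the 99th percentile as background. The shares of all genes were 58.9% and 41.7%. The 4 of highest signal, an order that served only to choose names, were Rsu1, a partner of PINCH, at 11.70 ± 0.12 log2 (n = 3), the alpha-actinin gene Actn4, which is mutated in familial focal segmental glomerulosclerosis, at 11.41 ± 0.01, the alpha-parvin gene Parva at 11.36 on every array, and the kindlin-2 gene Fermt2 at 11.24 ± 0.02. They lay 4.31 to 4.78 above background. Rsu1 was lower on replicate 1, with 11.57, than on the other arrays, with 11.77 on each.

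Undetected partners were Fermt1, kindlin-1 of epithelia, at 5.92, Parvg, the parvin of blood cells, at 6.60, Src at 6.70 and Tln2 at 6.91. Further genes of the ILK complex and talin, named after their values were seen, were Ilk at 9.55 log2, Lims1, which encodes PINCH-1, at 9.90 ± 0.04, and Tln1 at 9.03. The kindlin of blood cells, Fermt3, was detected at 7.13 ± 0.06, 0.21 above background. Cd151, a tetraspanin that binds laminin receptors and is needed for the glomerular filter in mice and people, had 9.63, 9.90 and 9.90, a mean of 9.81 ± 0.16.

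Genes of matrix ligands came next. Of 18 laminin and collagen genes 14 were detected, with a median of 1.06 log2 above background and 0 with a linear signal that exceeded 1000 on each array. Over all genes 58.9% were detected and 7.59% exceeded 1000 on each array. Lamc1 at 9.34 and Lamb2 at 9.32 encode chains of the laminin of the glomerular basement membrane, and Col4a3 at 9.26 and Col4a4 at 8.71 chains of its collagen. Lama1, Lama2 and Lamb3 were among the 4 not detected. The list of RGD ligands leaves out Npnt, counted with the members, and 2 of its genes, Spp1 and Fbn1, had no value. Of the 10 RGD ligand genes analysed 5 were detected, with a median of 0.07. They were Thbs1, thrombospondin-1, at 8.11, Tgfb1 at 7.99 ± 0.11, Emilin1 at 7.72, the tenascin-C gene Tnc at 7.69 ± 0.18 and Tgfb3 at 7.31. Ibsp at 5.34, Egfl6, a relative of nephronectin, at 5.95 ± 0.09 and Fga at 6.16 were not detected, nor were the fibronectin gene Fn1 at 6.68 and the vitronectin gene Vtn at 6.17 ± 0.05. Fibrinogen, vitronectin and plasma fibronectin are made mainly by the liver.

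**Figure D3:**
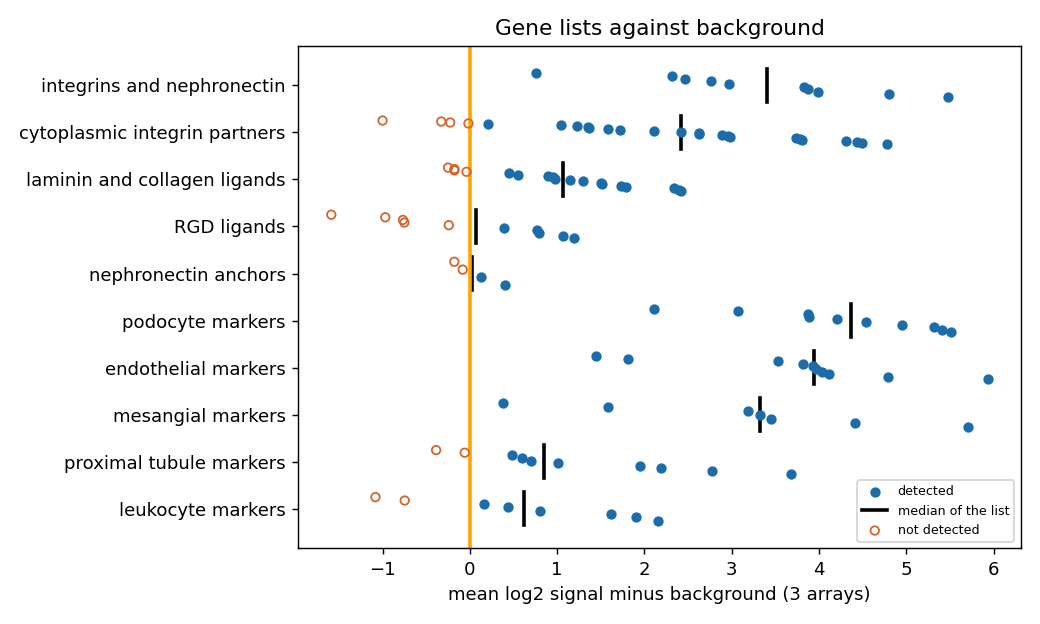
Mean log2 signal minus background over 3 arrays (horizontal axis) of every member of 10 lists, a list per row; blue points were detected and open points were not, a black bar gives each median, and the orange line marks background. The 10 integrins and nephronectin all lie to the right of the line with a median of 3.40, against medians of 2.41 for their cytoplasmic partners, 1.06 for laminin and collagen ligands and 0.07 for RGD ligands. Npnt is counted with the integrins and not among the RGD ligands. The list of cytoplasmic partners also holds the tetraspanin gene Cd151.

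The 3 preparations were compared gene by gene, as a description. Of the 10 genes, 2 had 1 value on all arrays, 6 had 2 values and 2, Itga1 and Itgb5, had 3 different values. Over detected genes these shares were 44.0%, 30.3% and 25.6%. The median SD of the 10 was 0.030 log2, against 0.0094 over all detected genes. It rested on replicate 2, without which it was 0.0059, against 0 over the same detected genes, whose median SD was 0 whichever replicate was left out (chosen after seeing the data). Itga3 differed between arrays by 0.21 log2, or 1.16-fold, and the other 7 genes by at most 0.08.

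Itga1 and Itgb5 stood apart. Itga1 had linear signals of 805, 566 and 665 on replicates 1, 2 and 3, and was 1.42-fold higher on replicate 1 than on replicate 2. Itgb5 had 2126, 1556 and 1716, and was 1.37-fold higher on replicate 1 than on replicate 2. Both were highest on replicate 1 and lowest on replicate 2, an order found in 4.99% of detected genes and in 19.4% of the 3013 with 3 different values. Itga4 and Itga9, 2 of the 5 other alpha partners of beta1, had the same order, Itga9 with values that both round to 8.83 on replicates 2 and 3. It was held by 0 of the 4 other beta subunits and 0 of the 8 leukocyte and platelet subunits. Itgb8 was highest on replicate 2 and lowest on replicate 3. A range as large as that of Itgb5 was found in 2.74% of detected genes and in 10.3% of those with 3 different values, and one as large as that of Itga1 in 7.40% of genes with 3 different values. Such differences between pools cannot be tested with 1 array each, and fewer cells of a type and less RNA per cell cannot be told apart in them.

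Markers of the corpuscle's cells also differed between arrays. The 10 endothelial markers had summed linear signals of 23126, 21948 and 22469 on replicates 1, 2 and 3. This is the order of Itga1 and Itgb5. It was held by 2 of the 10 genes, Tek with 11.00, 10.49 and 10.72 log2 and Ehd3 with 10.95, 10.78 and 10.83. In linear signal Tek had 2049, 1443 and 1684. Much of the difference in the endothelial sum between replicates 1 and 2 thus lay in Tek. On replicate 1, 7 of the 10 were higher than on replicate 2, 2 were equal and 1 was lower. The lower was Eng, with 10.38, 10.41 and 10.58 log2. The 10 podocyte markers summed to 30798, 29001 and 28731. The order of Itga1 and Itgb5 was found in 1 of them, Nes, with 10.13, 9.82 and 10.02 log2. Of the 10 podocyte markers, 5 were higher on replicate 1 than on replicate 2, 5 were equal and 0 were lower. The 7 mesangial markers summed to 12635, 13319 and 13452, with the order of Itga1 and Itgb5 in 0. Of these 7, 1 was higher on replicate 1 than on replicate 2, 3 were lower and 3 were equal. The mesangial sum moved through Agtr1a, the angiotensin II receptor, with 11.06, 11.44 and 11.52 log2, and the other 6 markers summed to 10500, 10546 and 10508, a comparison chosen after seeing the data. Proximal tubule markers summed to 4119, 4745 and 4422 and were lower on replicate 1 than on replicate 2 in 7 of 10 genes. Among the 7 the difference ran from 0.005 log2 in Lrp2 to 0.36 in Cyp2e1, and Slc6a19 was not detected. The 9 markers of the distal nephron summed to 2611, 2623 and 2779. Of these 9, only Calb1, the calbindin gene, had the order of Itga1 and Itgb5, at 9.61, 9.17 and 9.38 log2. On replicate 1, 5 of the 9 were lower than on replicate 2, 2 were higher and 2 were equal. Slc12a3 had 8.53, 8.51 and 7.95 log2 and Pvalb had 8.56, 8.73 and 8.04. Umod, the uromodulin gene of the thick ascending limb, had 8.77, 9.18 and 9.78 log2. The 8 leukocyte markers summed to 2061, 2367 and 1704, with the order of Itga1 and Itgb5 in 0. Shares of all detected genes higher or lower on replicate 1 than on replicate 2 were not counted. The marker counts therefore do not set a shift of a cell type apart from a difference of the whole array. The part of these shifts in the values of Itga1 and Itgb5 was not tested. Itgav, Itgb1 and Npnt differed between arrays by at most 0.05 log2.

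**Figure D4:**
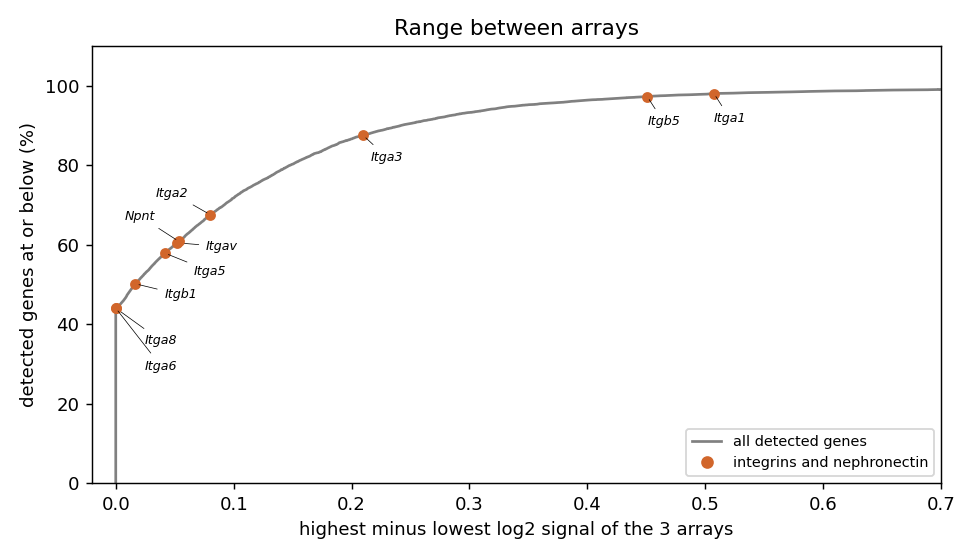
Share of detected genes at or below a given range between arrays (vertical axis, %) against the range, the highest minus the lowest log2 signal of the 3 arrays (horizontal axis, drawn up to 0.7); the grey line is all 11752 detected genes and orange points are the integrins and Npnt. Itga6 and Itga8 sit at a range of 0, and Itga1 and Itgb5, at 0.51 and 0.45, lie near the top of the curve.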

How the data were processed

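Total RNA of 3 pooled samples of sieved adult renal corpuscle was amplified (1 round, NuGEN Pico), labelled with biotin and measured on Affymetrix mouse arrays. The authors deposited 1 table of log2 signals for 35557 probe sets, from 2.36 to 14.40. Affymetrix Expression Console is named in the submitters' processing notes; the sources used here do not state its version, summary method or settings. The medians of the arrays, 7.11, 7.11 and 7.09, were left as deposited. Columns of other samples numbered 0. The number of arrays limits the precision.

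Platform annotation gave 1 symbol for 21789 probe sets and several for 1621, which named no gene, and 12147 are unnamed here. Where several probe sets named a gene, that of highest mean was used, giving 19938 genes. Detection used limma 3.58.1 in R 4.3.3 (lmFit with an intercept, eBayes with trend, one-sided) with Benjamini-Hochberg adjustment. P-values of single genes are not printed because values tied between arrays may make them too small. List genes without a value were not analysed here. Member genes and lists were chosen with earlier results of these data known. The rule named all members and integrin subunits, the 4 detected genes of highest signal and up to 3 undetected ones of partner, ligand and anchor lists, and 2 genes of marker lists; further genes were named after their values were seen. No search for genes of like pattern was made, since 3 arrays of 1 group carry no pattern over conditions. Alternatives covered the background level, a call with no model, quantile normalization, the mean over probe sets, a filter on dim genes and leaving out each replicate.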

Additional observations from a re-analysis of the deposited data

How the results depend on the processing

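No paired analysis was possible because there is only 1 group of samples. All 10 members were detected under all 10 alternatives, and their levels above background ran from 0.13, Itga5 with the 99th percentile of receptors, to 7.03, Itgb1 with their median. A lower background, at the median of receptors, could hardly lose a member, nor could the mean over probe sets, with 1 probe set each. The filter on dim genes called every gene it kept, by construction, and it kept all 10 members. The counts of 9 members over 500 and 5 over 1000 were the same under quantile normalization. That setting could hardly change them, since it scarcely moved the members. The level above background moved most in Itgb5, from 3.877 to 3.882 log2. The mean over probe sets could not change the counts over 500 and 1000. Leaving out a replicate could only raise them, and they stayed the same. The median SD of the members was 0.030 log2, and it was 0.0059 without replicate 2 and at most 0.037 when another replicate was left out.

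The background level moved the counts of genes near it. With the median of receptors, a lower level, 90.4% of all genes were detected, both genes of 24 of 24 pairs, 8 of 8 leukocyte and platelet subunits and 4 of 4 other beta subunits. With the 99th percentile, 0 leukocyte and platelet subunits, 1 other beta subunit and 2 other alpha partners of beta1 were detected. Testing only genes at or above the median level called 100% of the genes tested, by construction, and 1 leukocyte and platelet subunit. Counts of subunits other than the members therefore rest on the choice of background.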
